A study of Mus musculus with 3 samples.

Results

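Ser5-phosphorylated Pol_II was followed over 10 genes of the MHC class I antigen presentation pathway in mouse macrophages before and after LPS. The genes were taken by their symbols in the GENCODE M1 annotation of mm9: the heavy chain genes H2-K1 and H2-D1, the light chain gene B2m, the peptide transporter genes Tap1 and Tap2, the tapasin gene Tapbp, the immunoproteasome subunit genes Psmb8, Psmb9 and Psmb10, and Nlrc5, which codes for a transactivator of class I genes. Of the 10 genes, 9 belong to the 22202 protein-coding genes of that annotation on chromosomes 1 to 19 and X, and Nlrc5 is entered there as a lincRNA. In ChIP-Seq, fixed chromatin is precipitated with an antibody and the recovered DNA is sequenced, and the antibody used here recognises the repeat of the C-terminal domain of the large Pol_II subunit when it carries a phosphate on serine 5.

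The cells were bone marrow-derived macrophages (BMDM), grown from the marrow of female mice of the Fvb strain (Fvb/Hsd in the study's methods) in medium with L929-conditioned supernatant and used on day 7 of differentiation. There were 3 libraries: Ser5 of untreated cells (UT), Ser5 of cells given LPS, the endotoxin of Gram-negative bacteria, at 10 ng/ml for 2 h, and input DNA, chromatin sequenced without immunoprecipitation, of untreated cells. No genotype other than the strain was given, and the number of mice behind a library was not given in the sources used here. Each condition had 1 library, so differences could not be set against the spread between replicates, no tests were made, and the 95% intervals in the text cover counting error only. A tag counts where its 5′ end falls, and levels are given as TPM, tags scaled to 1000000 tags of the library, per kb of sequence.

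Nearly every nucleated cell displays peptides from its own proteins on class I molecules, which consist of a heavy chain and B2m. Proteasomes cut the proteins, Tap1 and Tap2 carry the peptides into the endoplasmic reticulum, and tapasin helps to load them onto the heavy chain. The genes are known targets of interferon and NF-kB signalling, both of which LPS sets off in macrophages, and their promoters are known to share a module, bound by RFX, CREB/ATF and NF-Y proteins, at which Nlrc5 acts.

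The Ser5 libraries held 7616771 tags (UT) and 6249819 tags (LPS) on chromosomes 1 to 19 and X, and the input held 7533308. The 8 macrophage markers examined (Emr1, Csf1r, Itgam, Cd68, Sfpi1, Lyz2, Fcgr1 and Mertk) had a median Ser5 level of 8.46 TPM per kb in UT cells and 7.58 after LPS, with 1 marker at least 2 times higher after LPS (Emr1) and 4 at least 2 times lower (Csf1r, Itgam, Cd68 and Lyz2). Of all protein-coding genes with enough tags, 5.96% were at least 2 times higher over the transcript and 11.4% at least 2 times lower. The 12 markers of other blood and stromal cells had a median of 0.161 in UT cells and a maximum of 0.927, and Hba-a1 had 0 tags over its transcript in all 3 libraries. Summed over the lists, the macrophage markers had 1886 TPM in UT cells and 1921 after LPS, and the markers of other cells 47.1 and 51.2, below the 125 of the input. Among the latter, Cd79a was the single marker above the input over the transcript in UT cells (0.927 against 0.524 TPM per kb). Within 1 kb of its TSS, Pecam1 had 167 tags in UT cells, 150 after LPS and 8 in the input. Cd79a and Pecam1 were named after their values were seen. All 8 genes of a list of LPS response genes (Tnf, Il1b, Nfkbia, Cxcl10, Ccl5, Il6, Ifnb1 and Il12b) were at least 2 times higher after LPS, with a median ratio of 38.6. In such cultures a change in the share of responding cells and a change per cell cannot be told apart.

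Ser5 was higher after LPS over most of the 10 genes. The ratio of LPS to UT over the whole transcript was at least 2 for 8 of the 10 genes, all but H2-D1 and Psmb10, and none was at least 2 times lower. Among the 17190 protein-coding genes that had 10 tags or more in the Ser5 libraries together, 5.96% were at least 2 times higher and 11.4% at least 2 times lower. The median ratio of the 10 genes was 2.77, against 0.876 for the protein-coding genes, whose quartiles were 0.665 and 1.15. Within 1 kb of the TSS, 7 of the 10 genes were at least 2 times higher and none at least 2 times lower, with a median ratio of 2.44, where 5.71% of 12496 protein-coding genes were higher, 14% were lower and their median ratio was 0.834. Psmb9 and Tap1, both among the 7, have TSS windows that share 1802 bp. With each base counted once, the 10 transcripts together held 3873 tags in UT cells, 8462 after LPS and 620 in the input, a ratio of LPS to UT of 2.66 (exact interval 2.56 to 2.77).

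**Figure D1:**
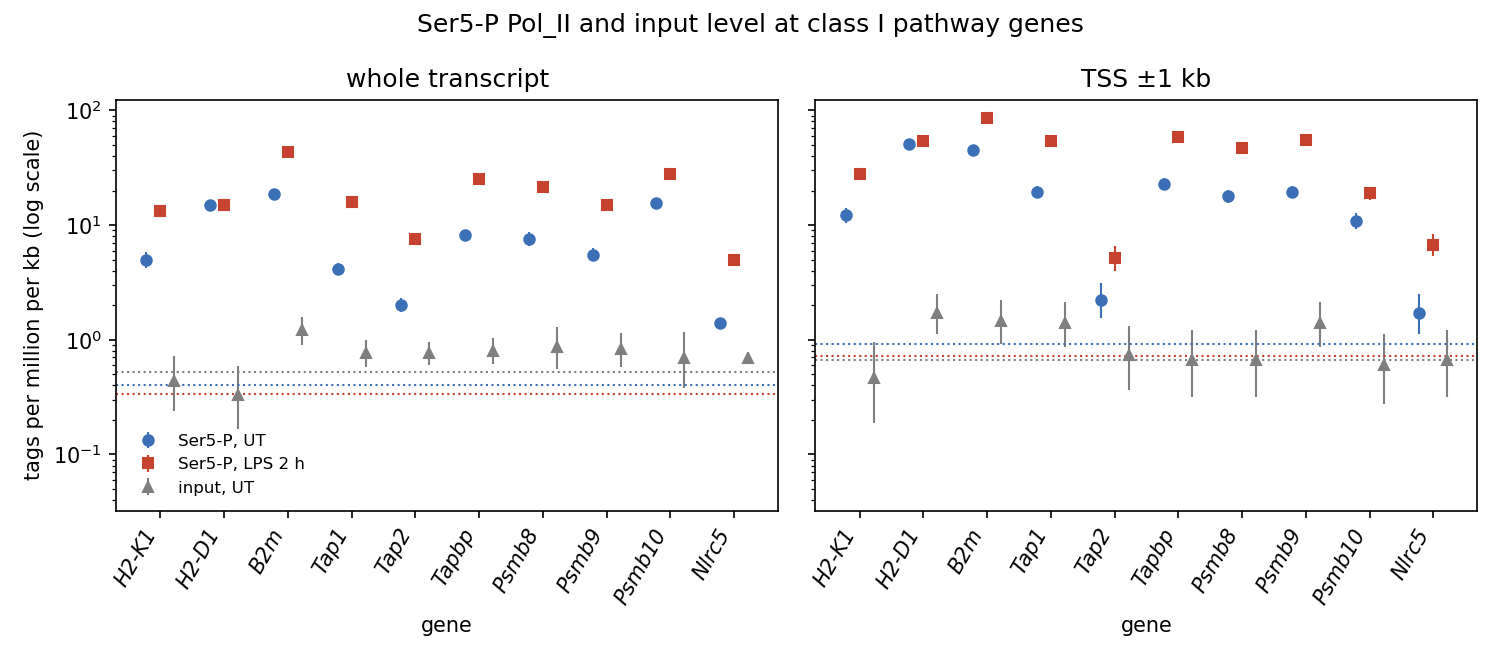
Level of each library over the whole transcript (left) and within 1 kb of the TSS (right) of the 10 genes, in TPM per kb on a log axis; points are single libraries, bars are exact 95% Poisson intervals for counting error, and dotted lines are the medians of all protein-coding genes in the same library colour. Over the transcript the LPS points lie above the UT points at every gene but H2-D1, where they are at 14.8 and 14.9 TPM per kb, and the input points are at 1.20 or less.

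Before stimulation Ser5 was already above the input over each of the 10 transcripts, least at Nlrc5 (2.02 times). In UT cells the median level over the 10 transcripts was 6.55 TPM per kb, against a median of 0.404 for protein-coding genes, and after LPS it was 15.3 against 0.339. The input had a median of 0.768 over the same transcripts and 0.518 over protein-coding genes. The order in UT cells ran from B2m (18.5 TPM per kb) over Psmb10 (15.5), H2-D1 (14.8), Tapbp (8.24), Psmb8 (7.59), Psmb9 (5.51), H2-K1 (5.00), Tap1 (4.17) and Tap2 (2.00) to Nlrc5 (1.40). Counting intervals of neighbours overlapped between B2m, Psmb10 and H2-D1, between Tapbp and Psmb8, and between Psmb9, H2-K1 and Tap1 in turn, so these neighbours were not separated. After LPS the order was B2m (43.3), Psmb10 (27.9), Tapbp (25.1), Psmb8 (21.5), Tap1 (15.7), H2-D1 (14.9), Psmb9 (14.9), H2-K1 (13.2), Tap2 (7.60) and Nlrc5 (4.91), and the neighbours Psmb10 and Tapbp, and those from Tap1 to H2-K1, were not separated. H2-D1 thus went from rank 3 in UT cells to rank 6 after LPS, while B2m was highest and Nlrc5 lowest in both.

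**Figure D2:**
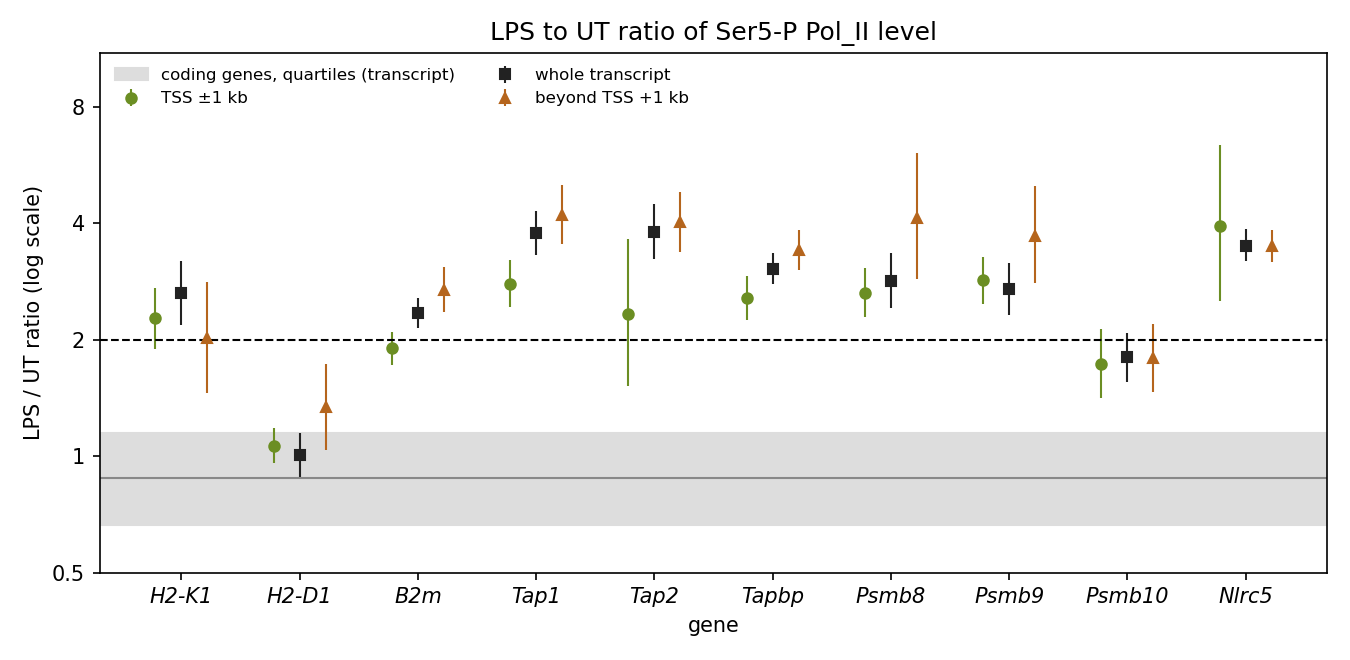
Ratio of LPS to UT level for each gene within 1 kb of the TSS (circles), over the whole transcript (squares) and over the transcript beyond TSS +1 kb (triangles), on a log axis; bars are exact 95% intervals for counting error, the grey band holds the middle quartiles and the grey line the median (0.876) of protein-coding genes over the transcript, and the dashed line marks a ratio of 2. H2-D1 lies in or just above the grey band, Psmb10 lies below 2 in all 3 measures, and Tap1, Tap2, Psmb8 and Psmb9 lie between 3.71 and 4.21 beyond the start.

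The heavy chain genes, which code for the peptide-binding chain, lie apart on chromosome 17 (mm9): H2-K1 on the minus strand at chr17:34132998-34137278 and H2-D1 on the plus strand at chr17:35400039-35404442. Their promoters are shown because the sequences are alike and the Ser5 ratios over the transcript were 2.64 and 1.01. The letters are those of RefSeq (GRCm38.p6), from 250 bases before to 50 after the start, and each matched its mm9 chromosome at 1 place without a mismatch. Capitals mark matches, on either strand, to 6 motifs: the core of the interferon-stimulated response element (GAAANNGAA), the interferon gamma-activated sequence, or GAS (TTCNNNGAA), the kB motif of NF-kB, the CREB/ATF element of the class I module (TGACG), the Y box of NF-Y (CCAAT) and the TATA box (TATAAA).
H2-K1 promoter, chr17:34137229-34137528, minus strand: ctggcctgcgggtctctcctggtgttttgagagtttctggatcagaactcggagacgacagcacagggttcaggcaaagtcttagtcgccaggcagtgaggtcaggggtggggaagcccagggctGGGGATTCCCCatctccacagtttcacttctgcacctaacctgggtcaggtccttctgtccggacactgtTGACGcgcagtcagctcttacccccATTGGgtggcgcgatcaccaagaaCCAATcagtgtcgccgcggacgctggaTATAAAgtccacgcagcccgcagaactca
H2-D1 promoter, chr17:35399789-35400088, plus strand: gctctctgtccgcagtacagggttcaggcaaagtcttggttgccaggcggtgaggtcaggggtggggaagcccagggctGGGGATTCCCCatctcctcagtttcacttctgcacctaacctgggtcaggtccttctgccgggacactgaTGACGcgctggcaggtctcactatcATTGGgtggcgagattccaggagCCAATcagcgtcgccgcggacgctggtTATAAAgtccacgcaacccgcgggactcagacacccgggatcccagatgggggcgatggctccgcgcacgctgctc

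Aligned with free ends, the promoters of H2-K1 and H2-D1 had the same base at 222 of 254 positions (87.4%). Both hold a kB run that matches in 2 overlapping registers and on both strands, beginning at base -125 of H2-K1 and -171 of H2-D1, followed by TGACG at -55 and -101. A reversed and a forward CCAAT come next in both, and TATAAA begins at base 22 after the annotated start of H2-K1 and at -26 before that of H2-D1.

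Over the H2-K1 transcript 163 Ser5 tags were found in UT cells, 353 after LPS and 14 in the input, or 5.00, 13.2 and 0.434 TPM per kb. The LPS library was the highest, and the ratio of LPS to UT was 2.64 (2.19 to 3.20). Within the 300 bases printed above there were 87, 156 and 2 tags, a ratio of 2.19 (1.67 to 2.87). Over the H2-K1 transcript the ratio was 2.18 when identical tags were counted once and 2.28 when tags were moved 75 bp downstream. Beyond TSS +1 kb it was 2.02 (1.45 to 2.82), an interval that overlaps that of H2-D1 there (1.04 to 1.72). The first 250 bp of H2-K1, its highest bin in both libraries, held 76 tags in UT cells and 202 after LPS. In the 2 kb past its end, where no other gene is annotated, 123 and 89 tags gave a ratio of 0.88 (0.66 to 1.17), an interval that includes 1.

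At H2-D1 the counts were 497 tags in UT cells, 410 after LPS and 11 in the input, or 14.8, 14.9 and 0.332 TPM per kb. The ratio was 1.01, with an interval (0.88 to 1.15) that includes 1, and it exceeded 63.5% of the ratios of protein-coding genes. The promoter letters printed above held 514, 454 and 9 tags, a ratio of 1.08 (0.947 to 1.22), and the TSS window 777 and 678 tags (1.06, 0.96 to 1.18). With 51.0 TPM per kb there (47.5 to 54.7), H2-D1 had the highest TSS level of the 10 genes in UT cells and lay above 99.4% of protein-coding genes. This interval overlaps that of B2m (41.5 to 48.3), and the input also had its highest TSS level of the 10 genes at H2-D1, with 26 tags. Beyond TSS +1 kb the H2-D1 ratio was 1.34 (1.04 to 1.72), and in the 2 kb past the end of H2-D1 165 and 229 tags gave 1.69 (1.38 to 2.08). The ratio over the H2-D1 transcript was 1.21 when identical tags were counted once and 1.16 when tags were moved 75 bp downstream. Both values lie above the interval of 0.88 to 1.15.

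Part of the sequence of both heavy chain genes could not be read. Only tags that matched 1 place with at most 2 mismatches were kept, and 37.2% of the 30-base sequences in the transcript of H2-K1 and 37.2% in that of H2-D1 occur elsewhere in mm9, against between 0% and 7.57% in the other 8 genes. Tags were 30 bases long in the LPS library and 45 in the UT library, and of the 45-base sequences 21.0% and 20.3% were repeated. The study's supplementary methods give these lengths to the libraries the other way round, and those seen in the deposited tags were used. When only tags at 30-base sequences found once were used, the ratio was 2.93 for H2-K1 and 1.11 for H2-D1. These shares and this choice of tags rest on exact copies. Tags can also be lost at near-copies with up to 2 mismatches, so the libraries were not made equal there. The size of that loss in each library was not tested. Fvb/Hsd mice also carry another H2 haplotype than the C57BL/6 mice of the reference, and the part of strain differences in these counts was not tested.

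B2m, the light chain common to all class I molecules, lies at chr2:121973422-121978819 on the plus strand and had the highest Ser5 level of the 10 genes over its transcript in both conditions. It held 760 tags in UT cells, 1460 after LPS and 49 in the input, or 18.5, 43.3 and 1.20 TPM per kb. After LPS its transcript level lay above 99.6% of protein-coding genes. The ratio was 2.34 (2.14 to 2.56) over the transcript, 1.90 (1.72 to 2.09) within 1 kb of the TSS and 2.69 (2.36 to 3.08) beyond TSS +1 kb. B2m was therefore 1 of the 3 genes below 2 at the TSS, and it passed 2 (2.04) when the libraries were scaled to tags outside peaks. Its promoter, printed to set beside those of the heavy chains, is the single one of the 8 found in RefSeq with GAAANNGAA, the core as spelled here. These letters were in 8.56% of all RefSeq promoters, and other spellings of the response element were not searched.
B2m promoter, chr2:121973173-121973472, plus strand: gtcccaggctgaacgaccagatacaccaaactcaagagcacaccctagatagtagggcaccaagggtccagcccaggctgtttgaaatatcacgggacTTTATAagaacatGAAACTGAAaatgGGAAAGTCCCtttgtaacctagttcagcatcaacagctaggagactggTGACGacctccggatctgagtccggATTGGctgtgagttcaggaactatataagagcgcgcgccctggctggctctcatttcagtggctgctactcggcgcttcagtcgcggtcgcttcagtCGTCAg

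The B2m letters hold GAAACTGAA from base -139, a reversed kB match from -126, TGACG from -78 and a reversed CCAAT from -53. The 300 bases held 318 tags in UT cells, 397 after LPS and 3 in the input, a ratio of 1.52 (1.31 to 1.77). B2m overlaps the annotated gene Patl2, and tags carry no information on which of the genes they came from.

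**Figure D3:**
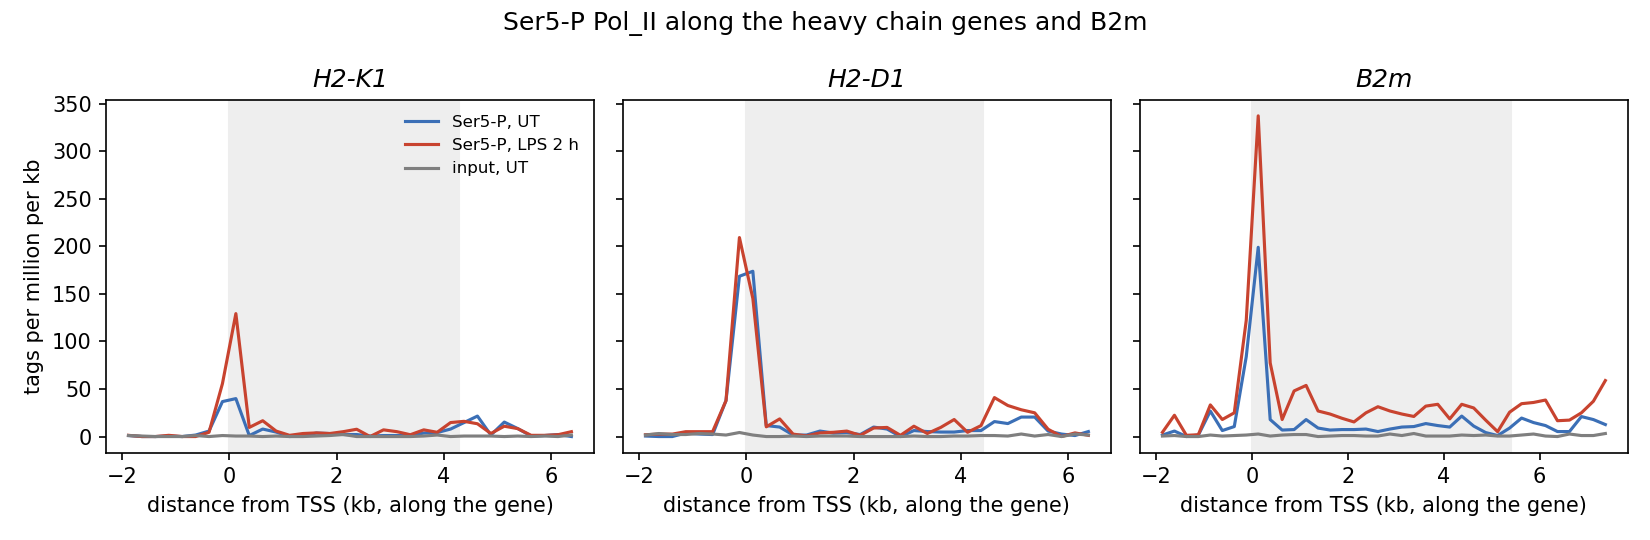
Level in bins of 250 bp along H2-K1, H2-D1 and B2m for the 3 libraries, in TPM per kb on a linear axis shared by the panels, against the distance from the TSS; the grey area is the transcript. The highest bin of H2-K1 goes from 39.9 in UT cells to 129 after LPS and that of B2m from 199 to 337, while H2-D1 has 169 and 209 in the bin before its start and 174 and 145 in the bin after it.

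Tap1 and Tap2 code for both chains of the peptide transporter, and with Psmb9 and Psmb8 they form a cluster within the class II region of chromosome 17. Tap1 (chr17:34324498-34334170, plus strand) held 307 tags in UT cells, 951 after LPS and 56 in the input, or 4.17, 15.7 and 0.768 TPM per kb. Tap2 (chr17:34340472-34353266, plus strand) held 195, 608 and 74 tags, or 2.00, 7.60 and 0.768 TPM per kb. The ratios of 3.78 (3.32 to 4.31) for Tap1 and 3.80 (3.23 to 4.49) for Tap2 were the highest of the 10 genes over the transcript, though their intervals overlap those of Nlrc5, Tapbp and Psmb8, and each exceeded 98.4% of those of protein-coding genes. At Tap2 the excess lay along the gene: beyond TSS +1 kb 169 UT and 557 LPS tags gave a ratio of 4.02 (3.38 to 4.80), and the Ser5 peaks over it numbered 1 in UT cells and 9 after LPS.

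The Ser5 of Tap2 did not centre on its annotated start. Within 1 kb of that start there were 34 tags in UT cells, 65 after LPS and 11 in the input. The highest bin of 250 bp began 1000 bp downstream in both libraries, with 25 and 73 tags, and the single UT peak, chr17:34341261-34341947, had its midpoint 1132 bp downstream. The Tap2 ratio at the annotated TSS, 2.33 (1.52 to 3.64), therefore leaves out most of these tags. Tap2 also overlaps the annotated genes Gm15821 and Gm20496.

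Psmb9 codes for the immunoproteasome subunit that takes the place of Psmb6, and it starts beside Tap1 in the opposite direction. It lies at chr17:34318932-34324697 on the minus strand and held 242 tags in UT cells, 536 after LPS and 36 in the input, or 5.51, 14.9 and 0.829 TPM per kb. The LPS library was again the highest, with a ratio of 2.70 (2.31 to 3.15). In GENCODE M1 the starts of Psmb9 and Tap1 are 199 bp apart with the transcripts overlapping by 200 bp, and in RefSeq they are 226 bp apart and the transcripts point away from each other. Their TSS windows share 1802 bp, so the values of the pair at the start (ratios of 2.84 for Psmb9 and 2.79 for Tap1) are nearly the same measurement and cannot be told apart. Beyond TSS +1 kb, where they do not overlap, the ratio was 3.71 (2.79 to 4.99) for Psmb9 and 4.21 (3.53 to 5.03) for Tap1. Of the 242 UT and 536 LPS tags over the Psmb9 transcript, 65 and 198 lay in this part. The others lay inside the TSS window of Tap1.

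The stretch between the 2 genes is shown on the strand of Tap1, since the pair shares 275 of the 300 bases. It held 95 tags in UT cells, 151 after LPS and 4 in the input, a ratio of 1.94 (1.49 to 2.53).
Tap1 promoter, chr17:34324251-34324550, plus strand: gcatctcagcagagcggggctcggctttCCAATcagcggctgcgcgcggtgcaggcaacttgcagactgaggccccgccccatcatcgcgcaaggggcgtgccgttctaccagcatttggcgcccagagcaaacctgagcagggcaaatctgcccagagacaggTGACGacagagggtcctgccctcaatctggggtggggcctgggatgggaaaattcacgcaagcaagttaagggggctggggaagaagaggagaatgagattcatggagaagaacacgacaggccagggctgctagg

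In these letters CCAAT begins at base -222 from the Tap1 start and TGACG at -86. Neither the response element core nor the GAS letters, as spelled here, is in this window.

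Psmb8, the subunit that takes the place of Psmb5, starts 564 bp past the end of Tap1, and Tap2 starts 2072 bp past the end of Psmb8. Over Psmb8 (chr17:34334735-34338399, plus strand) there were 212 tags in UT cells, 493 after LPS and 24 in the input, or 7.59, 21.5 and 0.869 TPM per kb. The ratio was 2.83 (2.41 to 3.35) over the transcript, 2.64 (2.28 to 3.06) at the TSS and 4.12 (2.87 to 6.06) beyond TSS +1 kb, where the counts were 39 and 132. The Ser5 of Psmb8 formed 2 peaks in UT cells, at chr17:34334246-34334990 and chr17:34335033-34335781, and after LPS a single peak, chr17:34334234-34336791, spanned both places. The RefSeq start of Psmb8 lies 405 bp downstream of the GENCODE M1 start, between the midpoints of these UT peaks. Its promoter is printed because it is the one with the GAS letters, which were in 8.3% of all RefSeq promoters.
Psmb8 promoter, chr17:34334890-34335189, plus strand: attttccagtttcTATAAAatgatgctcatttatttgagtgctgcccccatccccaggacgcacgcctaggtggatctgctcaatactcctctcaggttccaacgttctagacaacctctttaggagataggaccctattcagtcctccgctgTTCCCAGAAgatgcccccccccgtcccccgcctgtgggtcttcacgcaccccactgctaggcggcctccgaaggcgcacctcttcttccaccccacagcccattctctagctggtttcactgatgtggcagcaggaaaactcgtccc

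The GAS match of Psmb8 begins at base -97 and reads as a match on both strands. These 300 bases held 16 tags in UT cells, 37 after LPS and 0 in the input, a ratio of 2.82 (1.53 to 5.43). Psmb8 overlaps the annotated gene Gm20496.

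**Figure D4:**
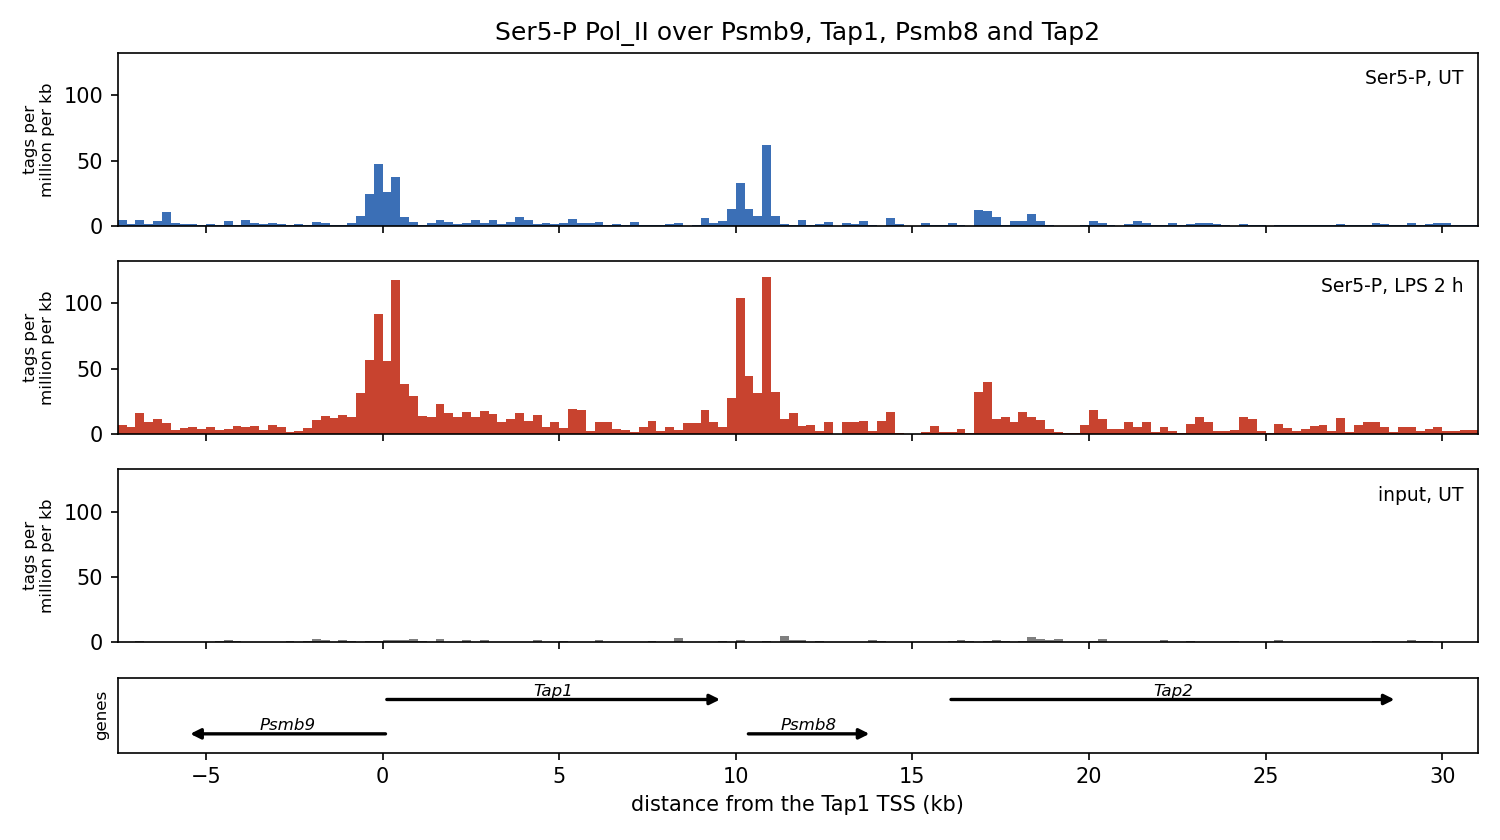
Level in bins of 250 bp over Psmb9, Tap1, Psmb8 and Tap2 in the 3 libraries, in TPM per kb on equal linear axes, against the distance from the Tap1 TSS; arrows give the transcripts and their direction. The starts of the Psmb9 and Tap1 pair and of Psmb8 stand out in both Ser5 libraries, with the highest bin at 62.0 in UT cells and 120 after LPS, the signal between the starts is higher after LPS, and the input stays near 0.

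Tapbp codes for tapasin, which holds the loading complex at the transporter. It lies at chr17:34056277-34066233 on the plus strand and held 625 tags in UT cells, 1563 after LPS and 60 in the input, or 8.24, 25.1 and 0.800 TPM per kb. The ratio was 3.05 (2.78 to 3.35) over the transcript, 2.56 (2.25 to 2.91) at the TSS and 3.41 (3.02 to 3.85) beyond TSS +1 kb. Peaks covered 51.7% of the transcript in UT cells and 94.7% after LPS. The highest bin began past the transcript's end, 10250 bp from the start in UT cells (204 tags) and 10000 bp after LPS (441 tags). The 2 kb past that end hold the annotated gene Rgl2. In both libraries a peak runs across the end, and its tags cannot be assigned to a gene. Its gene record also holds a shorter transcript that starts further upstream, and at that start the ratio was 4.27.

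Psmb10, the subunit that takes the place of Psmb7, is the immunoproteasome gene that lies outside the cluster, at chr8:108459628-108462292 on the minus strand. It held 314 tags in UT cells, 464 after LPS and 14 in the input, or 15.5, 27.9 and 0.697 TPM per kb. The ratio of 1.80 (1.56 to 2.08) was the smallest of the 3 immunoproteasome genes, and its interval did not overlap those of Psmb8 (2.41 to 3.35) and Psmb9 (2.31 to 3.15). The Psmb9 value rests in part on tags inside the TSS window of Tap1. The Psmb10 ratio differed little along the gene, with 1.73 (1.41 to 2.13) at the TSS and 1.79 (1.46 to 2.19) beyond TSS +1 kb. As at Tap2, the highest bin of Psmb10 began 1000 bp past the annotated start in both libraries, with 92 and 129 tags. The 300 bases of its RefSeq promoter held 7 and 13 tags and none of the 6 motifs. Psmb10 overlaps the annotated gene Gm16156.

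The standard subunits were measured beside them. Psmb5 had 45 tags in UT cells and 37 after LPS (ratio 1.00, 0.63 to 1.58), Psmb6 had 108 and 114 (1.29, 0.98 to 1.69), and Psmb7 had 717 and 501 (0.85, 0.76 to 0.96). The ratio of each immunoproteasome gene thus lay above that of its standard counterpart, with intervals that did not overlap for the pairs Psmb8 and Psmb5, Psmb9 and Psmb6, and Psmb10 and Psmb7. Of the 7 standard subunits and activators listed, 1 was at least 2 times higher and none lower, with a median ratio of 1.29. The shares over protein-coding genes were 5.96% and 11.4%. The one was Psme2, a subunit of the activator that docks on the proteasome, with 136 tags in UT cells and 352 after LPS (3.15, 2.58 to 3.87), and its partner Psme1 had 189 and 241 (1.55, 1.28 to 1.89).

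Nlrc5 is known to act at class I promoters in the nucleus. GENCODE M1 enters it as a lincRNA of 54510 bp at chr8:96996663-97051172 on the plus strand, with no coding transcript, so its longest transcript was used. It held 583 tags in UT cells, 1674 after LPS and 285 in the input, or 1.40, 4.91 and 0.694 TPM per kb. The UT level was 2.02 (1.75 to 2.34) times that of the input, the least of the 10 genes, and the LPS level 7.08 (6.24 to 8.06) times. The ratio of LPS to UT was 3.50 (3.18 to 3.85). Nlrc5 was the single gene with no Ser5 peak within 1 kb of the TSS in UT cells, and the peaks over it numbered 2 in UT cells and 41 after LPS, covering 0.992% and 49.7% of the transcript.

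Ser5 tags were also found upstream of the annotated start of Nlrc5. Within 1 kb of that start there were 26 tags in UT cells, 84 after LPS and 10 in the input, a ratio of 3.94 (2.51 to 6.37). The 37657 bp upstream, chr8:96959006-96996662, which GENCODE M1 leaves free of genes as far as the 5′ end of 9330175E14Rik on the minus strand, held 187 tags in UT cells, 870 after LPS and 201 in the input. In UT cells this stretch was at the input level (0.652 and 0.709 TPM per kb), and after LPS it was at 3.70, a ratio of 5.67 (4.84 to 6.68), with 0 peaks in UT cells and 22 after LPS. At its far end a narrow Ser5 peak stood in both libraries, at chr8:96957876-96958581 in UT cells and chr8:96957936-96958623 after LPS, and within 1 kb of the 5′ end of 9330175E14Rik there were 151 tags in UT cells, 343 after LPS and 15 in the input, a ratio of 2.77 (2.28 to 3.38). Whether the upstream tags belong to Nlrc5, to 9330175E14Rik or to neither was not tested. This stretch and this neighbour were chosen after their values were seen.

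**Figure D5:**
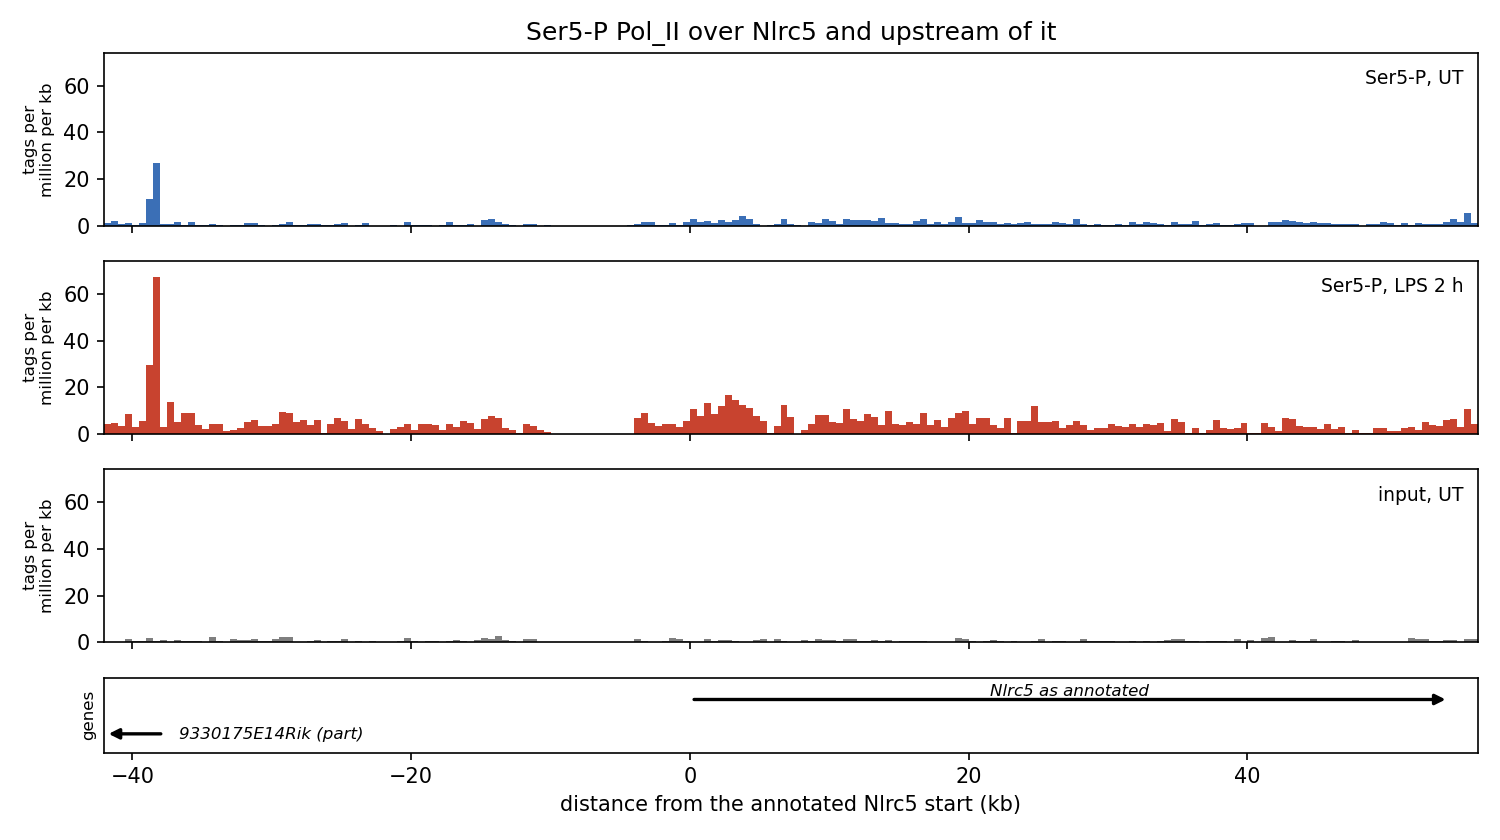
Level in bins of 500 bp from 42 kb upstream of the annotated Nlrc5 start to past its end in the 3 libraries, in TPM per kb on equal linear axes; arrows give the annotated Nlrc5 transcript and the part of 9330175E14Rik inside the window. A narrow bin at -38500 bp reaches 26.8 in UT cells and 67.2 after LPS, a lower signal runs from there through the annotated gene after LPS, and 11 bins from -10.0 to -4.5 kb hold 0 tags in all 3 libraries.

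At B2m, Tap1 and Tapbp the ratio of LPS to UT was larger past the start than at it, with intervals that did not overlap, and at the other 7 genes the intervals at and past the start overlapped. How often these intervals are apart among protein-coding genes is not given here. The ratio beyond TSS +1 kb exceeded that within 1 kb of the TSS in 8 of the 10 genes, all but H2-K1 and Nlrc5, as it did in 54.9% of 11780 protein-coding genes with at least 10 tags in each part. The median of the ratio beyond over the ratio at the TSS was 1.32 for the 10 genes, with single genes from 0.886 (Nlrc5) to 1.72 (Tap2), and 1.05 for protein-coding genes. At Tap2 and Psmb10 the highest bin began 1000 bp past the annotated start, so that bin falls in the part beyond TSS +1 kb. Of the tags from 1 kb before the TSS to the transcript end, the median share within 1 kb of the TSS was 66.2% in UT cells and 57.2% after LPS for the 10 genes, 42.9% and 42.3% for protein-coding genes. The input share was also larger at the 10 genes, 35.9% against 8.0%. In Tap1, for example, the share was 64.2% (Wilson interval 59.8% to 68.5%) of 464 tags in UT cells and 54.3% (51.5% to 57.0%) of 1254 tags after LPS. In H2-D1 it was 86.4% (84.0% to 88.5%) and 83.5% (80.8% to 85.9%), intervals that overlap.

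Deposited Ser5 peaks lay over all 10 genes in both libraries, against 53.4% of protein-coding genes in UT cells and 50.7% after LPS. The 2 UT peaks of Nlrc5 scored 52.65 and 54.34, near the lowest score of 50. With a score of at least 100, 9 genes had a peak in UT cells and 10 after LPS. A peak lay within 1 kb of the TSS of 9 genes in UT cells, all but Nlrc5, and of 10 after LPS, against 48.0% and 46.0% of protein-coding genes. The share of the transcript under peaks was larger after LPS at every gene but B2m, where it was 97.5% in UT cells and 94.6% after LPS. How often this share is larger after LPS among protein-coding genes is not given here. At Psmb9 it was 15.2% and 78.2%, and at Tap2 5.37% and 56.0%.

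The promoters of 8 of the 10 genes were in the RefSeq table of 32851 promoters, and those of Tap2 and Nlrc5 were not. TGACG was in 5 of the 8 (H2-K1, H2-D1, B2m, Tap1 and Psmb9), against 20.8% of the table, and CCAAT in 6 of 8 (those 5 and Tapbp), against 37.4%. The kB motif was in 3 of 8 (H2-K1, H2-D1 and B2m), against 4.51%. TATAAA on either strand was in 4 of 8 against 13.6% and the GAS letters in 1 of 8 against 8.3%. The response element core as spelled here was in 1 of 8 against 8.56%, and other spellings were not searched in any promoter. The Tap1 and Psmb9 matches are the same letters counted for both genes, and of 2 RefSeq starts of H2-K1 the one nearest the GENCODE M1 start was used. The windows of Psmb8 (16 UT and 37 LPS tags) and Psmb10 (7 and 13) held the fewest Ser5 tags of the 8. At both genes the highest bin lay downstream of the window. H2-D1, at a ratio of 1.01, holds the same kinds of motif as H2-K1, at 2.64, and whether motifs bear on the ratios was not tested. All these letters are those of the C57BL/6 reference, and the promoters of the Fvb mice used here were not read.

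Other genes of the pathway were counted by list, to be read beside the 5.96% of protein-coding genes that were at least 2 times higher and the 11.4% at least 2 times lower over the transcript. Of 10 genes of peptide loading and trimming, 1 was at least 2 times higher after LPS and none lower, and their median ratio was 1.03. The highest was Lnpep, an aminopeptidase, with 608 tags in UT cells and 1046 after LPS (2.10, 1.90 to 2.32), and the lowest Thop1, a peptidase of the cytosol, with 138 and 61 (0.54, 0.39 to 0.73). The chaperones of the loading complex, named after their values were seen, had ratios of 1.02 (Calr), 1.03 (Pdia3) and 0.88 (Canx), beside 3.05 for tapasin.

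Of 23 other class I and class I-like heavy chain genes, 19 had a coding transcript in the annotation and 15 reached 10 tags. Among these, 4 were at least 2 times higher (H2-Q2, H2-Q7, H2-Q10 and H2-M2) and 3 at least 2 times lower (Cd1d1, Mr1 and Fcgrt), with a median ratio of 1.41. The 4 higher genes held at most 18 tags in any library over the transcript, and with a minimum of 50 tags none of the list was at least 2 times higher there. H2-T24 had the highest transcript ratio among those with 50 tags, with 151 tags in UT cells and 232 after LPS (1.87, 1.52 to 2.31), and Mr1, which presents vitamin metabolites, had the lowest with 127 and 43 (0.41, 0.28 to 0.59). Within 1 kb of the TSS, 14 genes of the list reached 10 tags. There 6 were at least 2 times higher and 3 at least 2 times lower, beside 5.71% and 14% of protein-coding genes. The higher ones included H2-T24 (96 and 176 tags, 2.23, 1.73 to 2.90) and H2-T22 (25 and 83, 4.05, 2.56 to 6.61), the latter named after its values were seen. The genes of this list are near-copies in part, and tags of near-copies can be lost.

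Among 15 genes of transcription factors known to act at class I promoters, 3 were at least 2 times higher (Irf1, Stat2 and Nfkb1) and 1 at least 2 times lower (Irf8), with a median ratio of 1.06. Irf1, an interferon regulatory factor, had 498 tags in UT cells and 1980 after LPS (4.85, 4.39 to 5.36). Nfkb1, a subunit of NF-kB, had the highest ratio with 1506 and 6949 (5.62, 5.32 to 5.95), and Irf8, a factor of the myeloid lineage, the lowest with 1428 and 481 (0.41, 0.37 to 0.46).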

How the data were processed

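The authors shortened the 76-base reads from the 3′ end and mapped them with Bowtie to mm9, where a tag was kept if it had 1 match with no more than 2 mismatches. Peaks of either Ser5 library over input DNA were called with MACS (p-value threshold 1e-05). Versions are not given in the sources used here, nor are the settings for the input by itself. The deposited tag files hold the position of every tag, 1 line per tag with duplicates kept, and the deposited peak lists hold positions and a score, minus 10 times log10 of the MACS p-value, of at least 50. Tags on chromosomes 1 to 19 and X were counted by 5′ end over the transcript with the longest coding sequence (GENCODE M1) and within 1000 bp of its TSS. On chromosome 19, 8 of 242608 LPS tags lay at repeated 30-base sequences if positions start at 0 and 18 if they start at 1, so 0 was taken as the start, and coordinates are given from 1. Distinct positions made up 84.5%, 81.4% and 82.7% of the UT, LPS and input tags, whose lengths were 45, 30 and 36 bases.

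With 1 library per condition, genes were called by size alone: at least 2 times higher or lower, with 10 tags or more in the Ser5 libraries together, and 0 tags set to 0.5. Intervals are exact Poisson, exact conditional on the sum (ratios) or Wilson (shares), all at 95%. Identical tags were kept, and PCR duplicates are not independent molecules, so the intervals cover counting error at most and can be too narrow for it. Counting identical tags once put the transcript ratios of H2-K1 (2.18) and H2-D1 (1.21) outside their intervals. The members and lists were chosen with earlier results of these data known, and 1 gene of the transcription factor list is not reported here. The genes named are all members, the highest and lowest ratio of each list among genes with at least 50 tags, Psmb5, Psmb6, Psmb7, Psme1, Psme2 and Irf1, and others are said to be chosen after their values were seen or are named where a count of at most 5 required it. Sequences of 30 and 45 bases were counted over mm9 to find repeats, and promoters come from RefSeq. Alternatives were counting identical tags once, moving tags downstream by 75 bp, scaling to tags outside peaks, the span of the gene record, other windows, tags at unrepeated sequence, a minimum of 50 tags, a fold of 1.5, peaks with a p of at most 1e-10 and peaks with most of their length inside the gene. Python 3.11.15, numpy 2.4.6, pandas 2.3.3, scipy 1.17.1 and matplotlib 3.10.9 were used, and the functions were tested on simulated data.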

Additional observations from a re-analysis of the deposited data

How the results depend on the processing

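No ratio of a member reversed its direction under the alternatives that gave single members a value: identical tags counted once, tags moved, scaling to tags outside peaks, the gene record's span, the part beyond TSS +1 kb, the 500 bp window, unrepeated sequence and the longer Nlrc5. Over the transcript 8 members were at least 2 times higher under every alternative to the tag counting, scaling, span, minimum and sequence choices, and 9 with a fold of 1.5; at the TSS the count was between 6 and 9. The 6 came from counting identical tags once, which put H2-K1 at 1.88, and the 8 from scaling to tags outside the peaks, which put B2m at 2.04. That scaling multiplied every ratio of LPS to UT by 1.08 (a shift of 0.11 on the log2 scale) and moved the median of protein-coding genes to 0.942. Relative to the median of protein-coding genes the median ratio of the members was 3.16, whichever the scaling. By its construction the same scaling divides by fewer tags, so the median LPS level became 32.8 TPM per kb in place of 15.3 and the median ratio of LPS to input 56.4 in place of 27.6. With a minimum of 50 tags, 0 other class I genes were at least 2 times higher over the transcript in place of 4, since those 4 held fewer tags. The median share of repeated sequence was 2.43% with 45 bases in place of 4.86% with 30. With Nlrc5 counted from the 5′ end of its upstream neighbour, an alternative chosen after seeing the data, its ratio was 4.03 in place of 3.50.

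No paired analysis was possible because each condition had 1 library and the labels give no replicate numbers, so that leaving out a library was not run. Depth limits the TSS values of Tap2 and Nlrc5, which rest on 34 and 26 UT tags. Tag length differs between the Ser5 libraries, input was taken from untreated cells only, and scaling to all tags assumes a like background in both libraries.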
